A study of Mus musculus with 16 samples.

Results

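Mitosis genes were followed in the ear skin of B6 mice, as the rows of the gene count table whose symbol is 1 of 51 names: cyclins, mitotic kinases, kinetochore and spindle proteins, condensins and proteins of chromosome separation and cytokinesis. All 51 were found among 48440 listed genes, each with 1 gene ID, and all 51 were among the 17604 genes with enough counts to be tested. The 16 RNA sequencing libraries fall into 4 groups of 4 mice. The untreated groups are ears of mice on a normal diet (ND), for a time the labels do not give, or on a high-fat diet (HFD) for 8 weeks, with no treatment. The treated groups are ears of mice on the same diets, taken 24 h after 200 ng of PMA per ear. PMA, a phorbol ester, switches on protein kinase C, and painted on skin it brings inflammation and a thicker epidermis. The labels say B6 and name no altered allele, and they give neither sex nor age of the mice nor whether untreated ears received solvent. Nothing in them says that a number pairs mice across groups, and p-values measure the spread between these mice.

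Library totals ran from 7739487 to 15571389 counts, and the 51 genes held 5557 to 49708 of them. Levels are CPM, counts scaled to a common library total with TMM factors, and values of single libraries are listed in the order of replicates 1 to 4. Library IDs begin with RHS in all 4 untreated ND libraries and in untreated HFD replicate 1, and with RHP in the other 11. The labels do not explain the prefix, and in ND mice it cannot be told apart from PMA. In untreated skin it nearly coincides with diet, since HFD replicate 1 is the only HFD library there with the prefix RHS. Growing hair was unequal between libraries: 15 genes of the hair shaft and inner root sheath summed to 2877, 1991, 82.8 and 687 CPM in untreated HFD replicates 1 to 4 and to 3685 CPM in PMA-treated HFD replicate 1. In the other 11 libraries this sum was 8.94 to 187 CPM. The effect of leaving out such libraries is given with the diet results.

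Mitosis is driven by the kinase CDK1 bound to A- and B-type cyclins. Condensins and topoisomerase II compact and untangle the chromosomes, kinetochores attach them to the spindle, and a checkpoint holds the anaphase-promoting complex back until all are attached. That complex then marks securin and cyclin B for destruction, separase cleaves the ring that holds sister chromatids together, and the central spindle places the furrow that divides the cell. Most of these genes are transcribed late in the cell cycle, when the MuvB complex with B-MYB and the factor FOXM1 act through a cell cycle homology region (CHR) near the start site, often beside CCAAT boxes bound by NF-Y. In skin the dividing cells are chiefly basal keratinocytes, the matrix cells of growing hair follicles and sebaceous gland progenitors, and PMA is a classical inducer of epidermal division.

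With PMA, 42 of the 51 genes rose in ND mice and 47 in HFD mice, and none fell, where 8.96% and 7.34% of all 17604 genes tested were called higher and 3.99% and 4.6% lower (edgeR quasi-likelihood test, Benjamini-Hochberg-adjusted p below 0.05 over all genes). The median log2 fold change of the 51 was 1.49 in ND and 1.55 in HFD mice, about 2.80-fold and 2.94-fold, beside 0.0013 and -0.017 over all genes. With HFD, 6 rose in untreated and 5 in PMA-treated skin, and none fell, where 2.87% and 0.943% of all genes were called higher and 1.06% and 1.26% lower. These counts moved with single libraries and with the tool: leaving out 1 library gave 1 to 8 in untreated and 0 to 10 in treated skin, leaving out the hair-highest library of each group gave 0 and 4, and DESeq2 gave 10 and 22. Over all genes DESeq2 called 782 and 446 higher, where edgeR called 505 and 166. The median log2 fold changes with HFD were 0.49 and 0.73, beside -0.023 and -0.033 over all genes. By group mean, 47 of the 51 stood lowest in untreated ND, next in untreated HFD, then in treated ND and highest in treated HFD skin. In whole skin, more dividing cells and more mitotic RNA per cell cannot be told apart.

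Promoters are shown for the CHR and CCAAT letters that mitosis genes are known for. Of the 51 genes 41 matched a RefSeq promoter by symbol (build GRCm38.p6, 43 windows of 300 bases, from 250 before to 50 after the start site). The stretches printed here run from 250 bases before to 19 after it for Ccnb2 (chr9:70421535-70421804, minus strand), Cdc20 (chr4:118437324-118437593, minus strand), Top2a (chr11:99024170-99024439, minus strand) and Ube2c (chr2:164769679-164769948, plus strand). All of them were picked by name from the genes with values in every library, and each holds both a CHR and a CCAAT match. Capitals mark the CHR letters TTTGAA or TTTAAA and the CCAAT box, each on either strand, so that TTCAAA and ATTGG are matches read from the other strand.
Ccnb2: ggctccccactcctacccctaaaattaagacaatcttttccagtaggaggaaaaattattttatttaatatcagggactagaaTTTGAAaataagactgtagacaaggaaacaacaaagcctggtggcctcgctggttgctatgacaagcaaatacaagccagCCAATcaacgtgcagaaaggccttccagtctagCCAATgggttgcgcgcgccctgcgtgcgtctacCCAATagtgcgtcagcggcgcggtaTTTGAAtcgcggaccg
Cdc20: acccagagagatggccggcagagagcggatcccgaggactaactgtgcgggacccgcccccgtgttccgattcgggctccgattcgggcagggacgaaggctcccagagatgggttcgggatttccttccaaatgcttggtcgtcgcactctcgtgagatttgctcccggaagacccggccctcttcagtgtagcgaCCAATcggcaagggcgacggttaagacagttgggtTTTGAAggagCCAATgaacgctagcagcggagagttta
Top2a: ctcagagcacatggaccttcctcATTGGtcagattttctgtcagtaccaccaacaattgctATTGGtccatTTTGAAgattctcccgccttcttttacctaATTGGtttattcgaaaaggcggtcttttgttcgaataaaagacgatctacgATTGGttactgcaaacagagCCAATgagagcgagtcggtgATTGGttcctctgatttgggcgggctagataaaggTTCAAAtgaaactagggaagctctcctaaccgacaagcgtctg
Ube2c: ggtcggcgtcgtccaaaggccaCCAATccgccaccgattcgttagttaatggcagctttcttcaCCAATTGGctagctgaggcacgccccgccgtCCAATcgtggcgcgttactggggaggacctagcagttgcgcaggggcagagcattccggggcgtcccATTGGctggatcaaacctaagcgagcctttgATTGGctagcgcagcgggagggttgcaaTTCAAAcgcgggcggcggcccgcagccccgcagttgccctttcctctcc
In Ccnb2 a CHR match lies 4 to 9 bases after the start site, behind 3 CCAAT boxes that begin at -87, -54 and -21, and a second lies at -167. Cdc20 has TTTGAA at -18 to -13, and Ube2c and Top2a have the letters on the other strand at -29 to -24 and at -23 to -18, and Top2a has a further match at -179. Of the 43 windows 34 (79.1%) held TTTGAA or TTTAAA, against 27.6% of all 32851 windows of the same length. CCAAT was in 33 (76.7%), against 37.4% of all, and 30 (69.8%) held both, against 10.7%. A CHR match that began between 60 bases before and 20 after the start site was present in 23 (53.5%), against 7.68% of all windows. These matches describe letters and do not show that a factor binds there. Both motifs were also in the windows of Espl1 and Ttk, which PMA did not move past the test, and neither was in those of Pttg1, which did not pass either, and of Nuf2, Nusap1, Ncaph, Melk and Mad2l1, which rose in both diets.

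**Figure D1:**
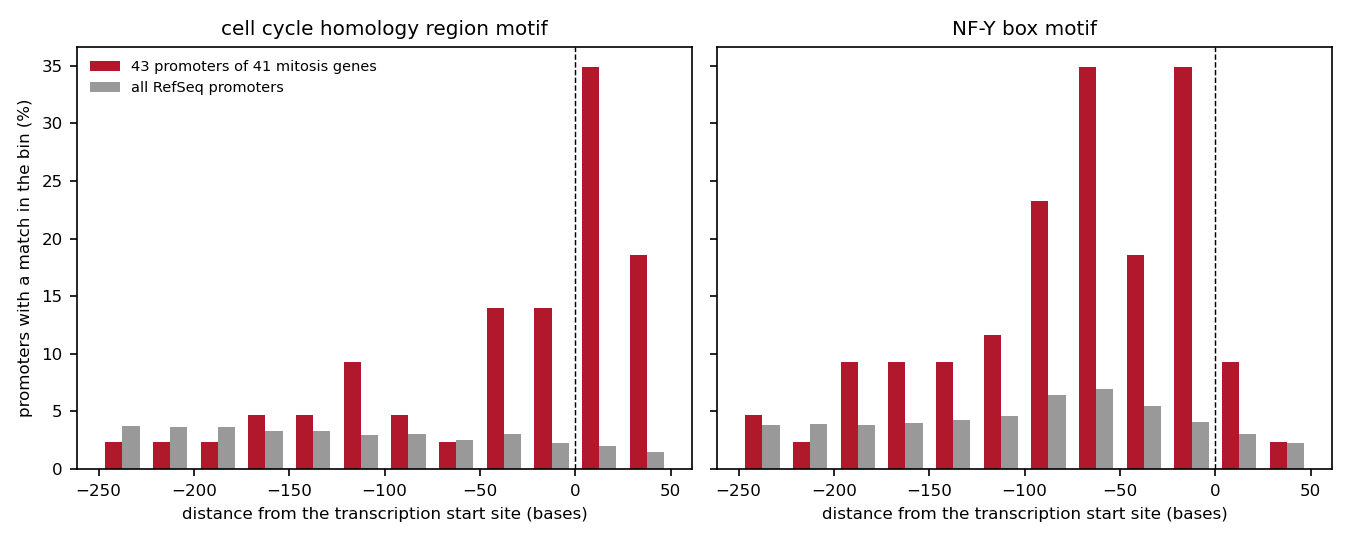
Share of promoters (percent, vertical axis) with a CHR match (left) or an NF-Y box match (right) that begins in each bin of 25 bases along the distance from the transcription start site (horizontal axis, bases), for 43 promoters of mitosis genes (red) and for all 32851 promoters (grey). In the bin from 0 to 24 bases, 34.9% of the red and 1.99% of the grey promoters had a CHR match, and NF-Y box matches of the red promoters were most frequent between 75 bases before the start site and the site itself.

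Summed over the 51 genes, the level per library was 685, 808, 649 and 847 CPM in untreated ND and 1334, 1031, 825 and 910.2 CPM in untreated HFD replicates 1 to 4. It was 1866, 1381, 1815 and 2215 CPM in PMA-treated ND and 3398, 3945, 2479 and 2052 CPM in PMA-treated HFD replicates 1 to 4. Every PMA-treated library lay above every untreated one, with the highest untreated library, HFD replicate 1, close to the lowest treated one, ND replicate 2. Between the diets the untreated groups overlapped, since HFD replicate 3 lay below ND replicate 4, and so did the treated groups, since HFD replicate 4 lay below ND replicate 4. PMA-treated HFD replicates 2 and 1 held the highest value of 36 and 11 of the 51 genes, and untreated ND libraries the lowest value of 39. The 2 treated HFD libraries with most mitotic RNA were unlike in hair RNA, with 3685 CPM of hair genes in replicate 1 and 138 in replicate 2. Per length of transcript, as mean TPM of a group, Cdc20 was highest in all 4 groups, with 66.9 TPM in untreated ND and 250.1 TPM in treated HFD skin. Next came Pttg1 in both untreated groups (38.8 and 39.2 TPM in ND and HFD) and Pbk in both treated groups (76.3 and 125 TPM). Lowest were Bub1 in untreated ND (1.77 TPM), Cenpf in treated ND (4.49 TPM) and Nuf2 in both HFD groups (3.07 and 8.93 TPM).

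**Figure D2:**
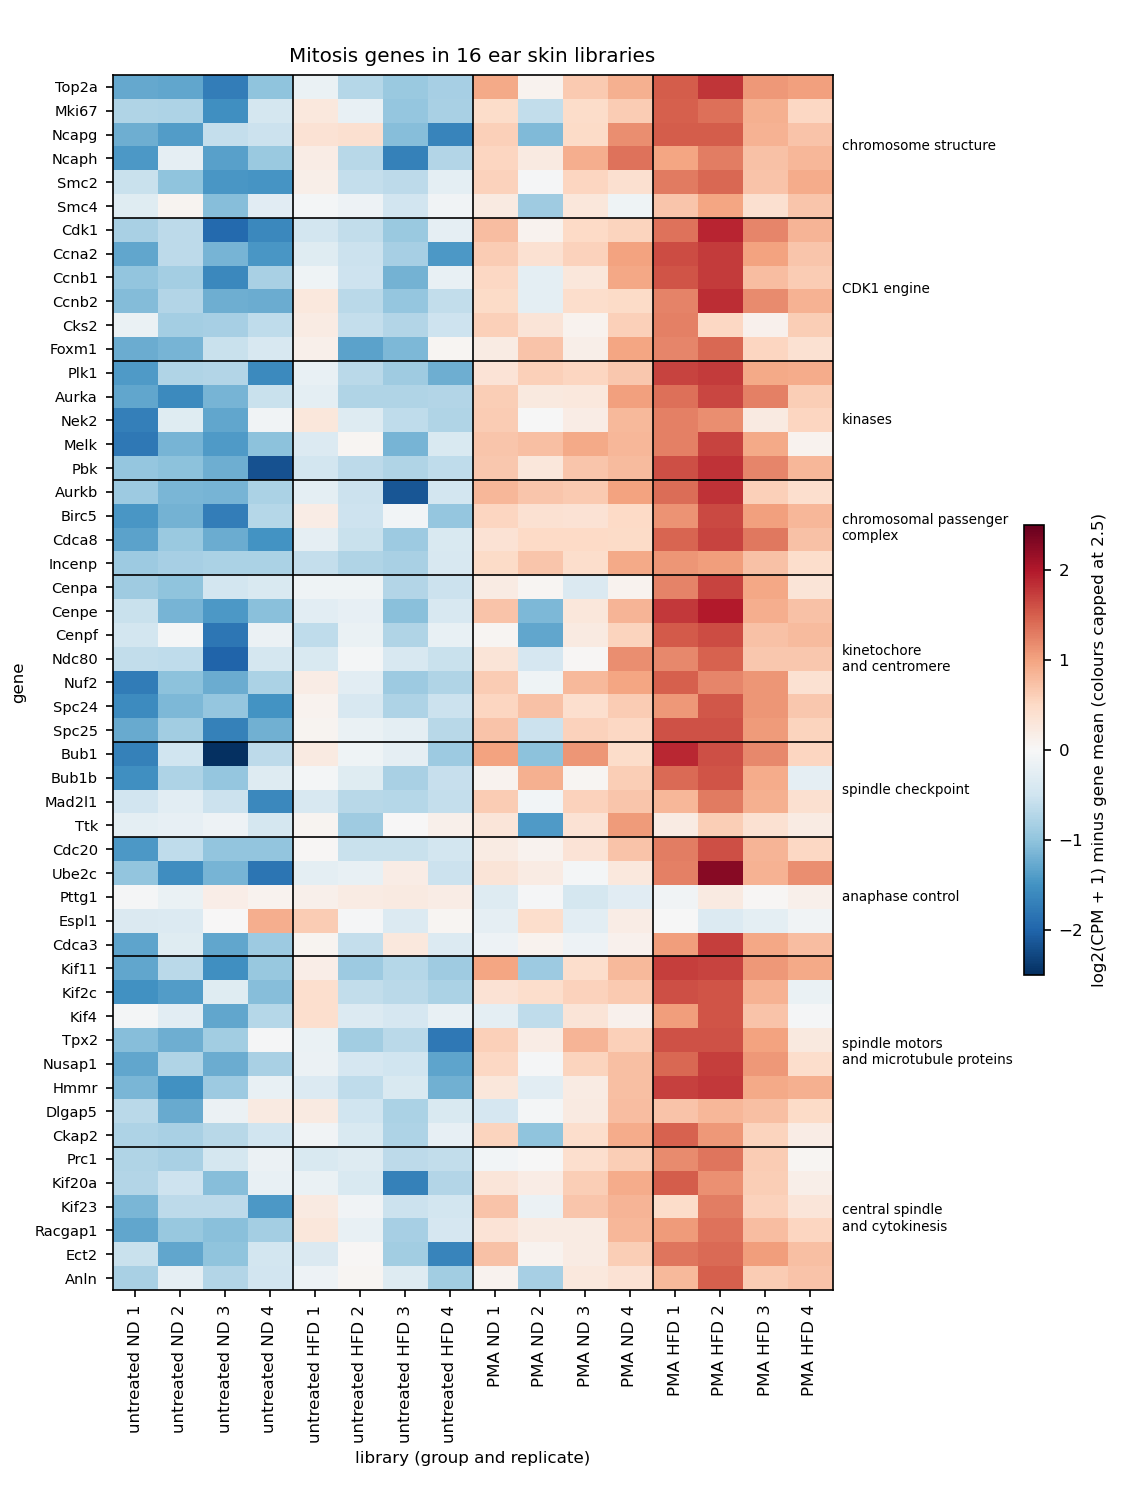
Level of each of the 51 genes (rows, ordered by role) in each of the 16 libraries (columns), as log2(CPM + 1) minus the gene's mean over all libraries, with colours capped at 2.5 in either direction. Untreated ND columns are mostly blue and PMA-treated HFD columns mostly red, while the rows of Pttg1, Espl1 and Ttk stay pale in most columns.

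**Figure D3:**
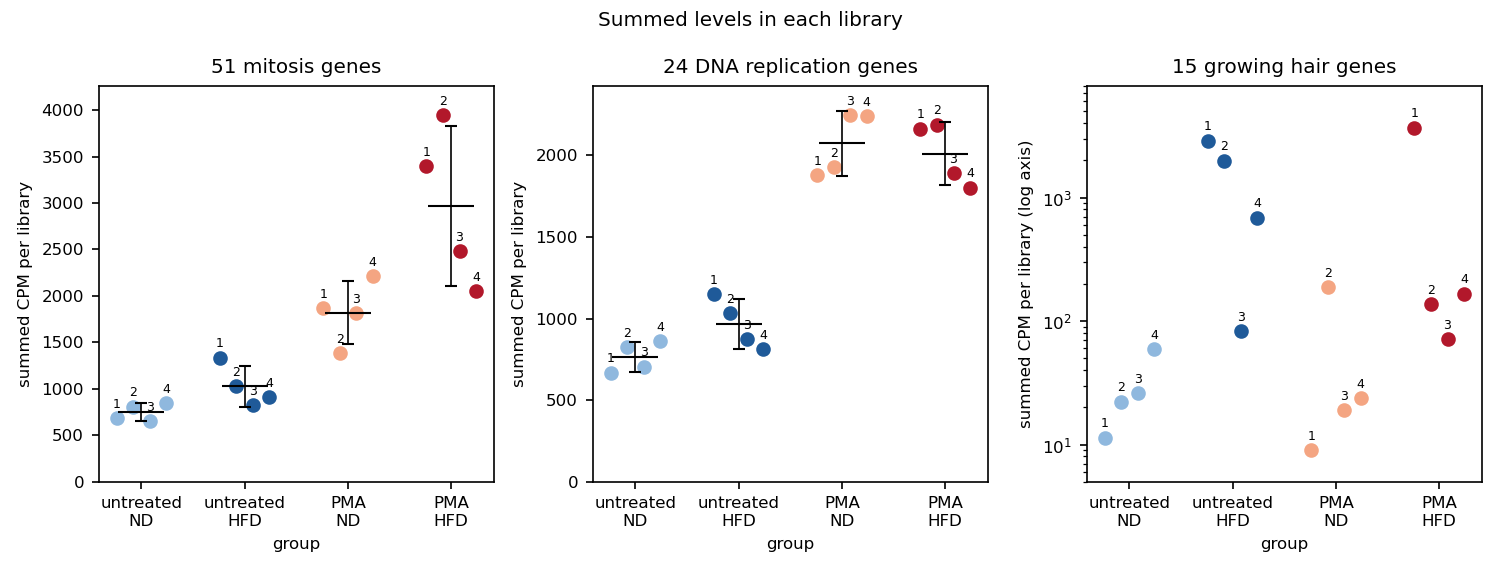
Summed CPM per library (vertical axis, points numbered by replicate, bars mean and SD of 4 libraries in the left and middle panels) of the 51 mitosis genes, 24 DNA replication genes and, on a log axis, 15 growing hair genes in the 4 groups. Mitosis genes are highest in PMA-treated HFD replicates 1 and 2, DNA replication genes lie at similar heights in both PMA-treated groups, and hair genes are highest in untreated HFD replicates 1 and 2 and PMA-treated HFD replicate 1.

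All 6 genes of the CDK1 engine rose with PMA in both diets, by 1.29 to 1.83 on the log2 scale in ND and 1.29 to 2.10 in HFD mice. Ccnb1, cyclin B1, which carries CDK1 into mitosis, stood at 23.2, 25.7, 14.7 and 26.4 CPM in untreated ND and at 43.8, 32.6, 20.2 and 41.5 CPM in untreated HFD libraries. After PMA, Ccnb1 stood at 67.4, 39.6, 57.7 and 92.6 CPM in ND and at 141, 160.0, 81.4 and 74.1 CPM in HFD libraries. Treated and untreated libraries did not overlap in either diet (log2 fold change 1.51 ± 0.29 (SE), edgeR adjusted p = 0.00145 in ND, and 1.73 ± 0.29, adjusted p = 0.000535, in HFD mice). Ccnb2, its partner cyclin B2, stood at 11.7, 15.1, 10.6 and 10.3 CPM in untreated ND and at 31.5, 15.7, 12.8 and 16.5 CPM in untreated HFD libraries. After PMA, Ccnb2 stood at 36.3, 21.7, 35.3 and 36.2 CPM in ND and at 62.2, 95.9, 59.7 and 48.2 CPM in HFD libraries. With HFD, Ccnb2 rose in PMA-treated skin (log2 fold change 1.04 ± 0.26 (SE), edgeR adjusted p = 0.0375), where the lowest HFD library exceeded the highest ND library. The call was lost without any of 6 single libraries (log2 fold change 0.84 to 1.12, edgeR adjusted p up to 0.139). Ccna2, cyclin A2 of S phase and early mitosis, stood at 15.3, 24.5, 16.9 and 13.7 CPM in untreated ND and at 31.2, 26.5, 21.4 and 13.9 CPM in untreated HFD libraries. After PMA, Ccna2 stood at 61.4, 51.4, 58.6 and 79.6 CPM in ND and at 122, 133, 78.8 and 63.5 CPM in HFD libraries. PMA moved it further than any other cyclin of the list in either diet (1.83 and 2.10), and 12.5% of its exon bases lie in Exosc9 on the opposite strand. Cdk1, the mitotic kinase, stood at 12.8, 14.3, 5.28 and 6.83 CPM in untreated ND and at 16.5, 14.8, 11.7 and 19.6 CPM in untreated HFD libraries. After PMA, Cdk1 stood at 40.1, 24.7, 33 and 34.3 CPM in ND and at 60.7, 88.8, 54.9 and 42.2 CPM in HFD libraries. No library of the treated groups was as low as any untreated one of its diet (log2 fold change 1.75 ± 0.29 (SE) in ND and 1.98 ± 0.28 in HFD mice, edgeR adjusted p = 0.000315 and adjusted p = 0.000134). The factor gene Foxm1 (5.89 ± 1.99 to 16.6 ± 4.99 CPM in ND mice, mean ± SD, n = 4) and the adaptor gene Cks2 (2.33 ± 0.776 to 5.68 ± 1.08 CPM) rose from low levels.

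Chromosome structure genes rose in 5 of 6 cases in ND and in 6 of 6 in HFD mice with PMA. Top2a, topoisomerase II alpha, which untangles sister chromatids (chromosome 11, 98992943 to 99024189, GRCm38), stood at 28, 27.6, 20.3 and 34.3 CPM in untreated ND and at 61.7, 42.1, 36 and 38.9 CPM in untreated HFD libraries. After PMA, Top2a stood at 135, 74.6, 110.3 and 130.0 CPM in ND and at 199.9, 242, 149 and 143 CPM in HFD libraries. It had the smallest adjusted p of all 51 in ND mice (log2 fold change 2.03 ± 0.22 (SE), edgeR adjusted p = 4.53e-06), and the 4 groups did not overlap between diets or treatments. Mki67, encoding the proliferation marker Ki-67, stood at 45.3, 44.3, 25.7 and 56.5 CPM in untreated ND and at 92, 67.5, 38.9 and 43.6 CPM in untreated HFD libraries. After PMA, Mki67 stood at 105, 50.1, 106 and 119 CPM in ND and at 219, 200.5, 142 and 109.7 CPM in HFD libraries. PMA-treated ND replicate 2 lay inside the range of untreated ND libraries, and the test passed in both diets (1.15 ± 0.31, edgeR adjusted p = 0.0166, and 1.48 ± 0.30, adjusted p = 0.00332). Smc2, a condensin ATPase, stood at 21.7, 15.6, 11 and 11 CPM in untreated ND and at 35.6, 20.9, 20.2 and 27.1 CPM in untreated HFD libraries. After PMA, Smc2 stood at 48.4, 31.3, 47.2 and 43.1 CPM in ND and at 80.6, 88.4, 53.2 and 61.8 CPM in HFD libraries. Treated libraries lay above the untreated ones of their diet (log2 fold change 1.52 ± 0.24 (SE) in ND and 1.46 ± 0.24 in HFD mice, edgeR adjusted p = 0.000231 and adjusted p = 0.000417). Its partner Smc4 was the exception in ND mice (log2 fold change 0.30 ± 0.23 (SE), edgeR adjusted p = 0.483), with 43.5, 56.6, 25.4 and 44.1 CPM in untreated and 63.4, 28.8, 66.2 and 49.9 CPM in treated libraries. In HFD mice Smc4 rose from 47.8 ± 6.09 to 89.2 ± 14.7 CPM. The condensin I subunit genes Ncapg and Ncaph rose in both diets, and 13.4% of Ncapg's exon bases lie in Lcorl on the opposite strand. The Ncapg call was lost without any of 11 single libraries in ND and any of 4 in HFD mice.

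Mitotic kinase genes rose with PMA in 5 of 5 cases in both diets. Plk1, polo-like kinase 1, which acts from mitotic entry to cytokinesis, stood at 9.12, 14.9, 15.3 and 7.95 CPM in untreated ND and at 22.6, 15.9, 13.5 and 10.6 CPM in untreated HFD libraries. After PMA, Plk1 stood at 33.3, 39.6, 38.1 and 42 CPM in ND and at 86.3, 89.9, 51.2 and 50.6 CPM in HFD libraries. Its increase in HFD mice was the largest of the 51 there (log2 fold change 2.16 ± 0.26 (SE), edgeR adjusted p = 2.44e-05). Aurka, Aurora A of the spindle poles, stood at 7.15, 5.67, 7.96 and 12.8 CPM in untreated ND and at 15.9, 11, 11 and 11.1 CPM in untreated HFD libraries. After PMA, Aurka stood at 29.7, 22.9, 23.2 and 40.2 CPM in ND and at 51.4, 63.4, 47.1 and 30.04 CPM in HFD libraries. Replicate 1 stood apart from the other 3 untreated HFD libraries, and PMA raised Aurka in both diets (log2 fold change 1.79 ± 0.27 (SE) in ND and 1.98 ± 0.27 in HFD mice, edgeR adjusted p = 0.000156 and adjusted p = 8.14e-05). Pbk, a kinase active in mitosis, stood at 14.8, 14.2, 12.4 and 5.83 CPM in untreated ND and at 21.5, 18.6, 17.5 and 19 CPM in untreated HFD libraries. After PMA, Pbk stood at 48.3, 36.7, 49 and 52.3 CPM in ND and at 93.9, 108, 71.4 and 53.8 CPM in HFD libraries. Neither the treatments nor the diets overlapped, and the diet differences did not pass the test (0.69 ± 0.24, edgeR adjusted p = 0.129, in untreated and 0.81 ± 0.23, adjusted p = 0.0682, in treated skin). Melk, a kinase of proliferating cells, stood at 3.33, 5.67, 4.61 and 6.39 CPM in untreated ND and at 10.7, 14.5, 5.66 and 10.5 CPM in untreated HFD libraries. After PMA, Melk stood at 23.2, 24.2, 28 and 25.7 CPM in ND and at 34.9, 47.5, 27.9 and 14.9 CPM in HFD libraries. In ND mice this was the largest rise of the 51 (log2 fold change 2.33 ± 0.32 (SE), edgeR adjusted p = 5.88e-05). Nek2, a kinase of centrosome separation, rose by 1.20 in ND and 1.20 in HFD mice.

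The 4 genes of the chromosomal passenger complex, which corrects faulty attachments at the centromere, rose with PMA in both diets. Cdca8, encoding borealin, stood at 12.2, 16.5, 13 and 10.8 CPM in untreated ND and at 27.3, 21.6, 16.7 and 24.6 CPM in untreated HFD libraries. After PMA, Cdca8 stood at 41.8, 45.9, 46.2 and 45.4 CPM in ND and at 89.9, 107, 82.2 and 53.8 CPM in HFD libraries. Cdca8 was 1 of 2 genes that also rose with HFD in both treatments (log2 fold change 0.77 ± 0.20 (SE), edgeR adjusted p = 0.0352, in untreated and 0.89 ± 0.19, adjusted p = 0.0173, in treated skin), and no pair of groups compared overlapped. The call in untreated skin was lost without any of 6 single libraries (edgeR adjusted p up to 0.124) and without the hair-highest library of each group (log2 fold change 0.59, adjusted p = 0.237). That in treated skin was lost without PMA-treated HFD replicate 2 (0.77, adjusted p = 0.0793). Birc5, encoding survivin, stood at 5.18, 6.42, 4.13 and 9.30 CPM in untreated ND and at 18.1, 10.9, 15.2 and 7.70 CPM in untreated HFD libraries. After PMA, Birc5 stood at 23.5, 21, 20.8 and 23 CPM in ND and at 36, 51.8, 33.6 and 28.9 CPM in HFD libraries. HFD raised it in untreated skin (log2 fold change 1.05 ± 0.28 (SE), edgeR adjusted p = 0.0386), though untreated HFD replicate 4 lay below ND replicate 4. The call was lost without any of 7 single libraries (log2 fold change 0.87 to 1.14, edgeR adjusted p up to 0.131) and without the hair-highest library of each group (1.12, adjusted p = 0.06). Aurkb, Aurora B, stood at 16.1, 13.5, 13.2 and 17.6 CPM in untreated ND and at 25.9, 21.1, 6.24 and 22.3 CPM in untreated HFD libraries. After PMA, Aurkb stood at 55.7, 50.6, 49.1 and 62.9 CPM in ND and at 83.1, 112, 47.1 and 41.6 CPM in HFD libraries. Untreated HFD replicate 3 was the lowest of the 16 libraries, and every treated library exceeded the untreated ones of its diet (log2 fold change 1.85 ± 0.33 (SE) in ND and 1.92 ± 0.33 in HFD mice, edgeR adjusted p = 0.000753 and adjusted p = 0.000695). Incenp, the scaffold of the complex, stood at 15.8, 16.8, 17.2 and 17.4 CPM in untreated ND and at 19.9, 17.9, 17 and 23.1 CPM in untreated HFD libraries. After PMA, Incenp stood at 43, 50.3, 41.8 and 60.1 CPM in ND and at 66.8, 64, 51.7 and 42.2 CPM in HFD libraries. Between the diets its values overlapped in both treatments (0.21 and 0.20, edgeR adjusted p = 0.611 and 0.63).

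Kinetochore and centromere genes rose with PMA in 5 of 7 cases in ND and in 7 of 7 in HFD mice. Cenpa, the histone H3 variant that marks centromeres, stood at 14.9, 13.6, 20.4 and 21.5 CPM in untreated ND and at 26.2, 26.4, 16.7 and 19.1 CPM in untreated HFD libraries. After PMA, Cenpa stood at 32.9, 29.5, 21.8 and 30.2 CPM in ND and at 68.3, 93.3, 56.4 and 35.4 CPM in HFD libraries. In ND mice the rise did not pass the test (log2 fold change 0.70 ± 0.25 (SE), edgeR adjusted p = 0.0745), though the groups did not overlap. With HFD, Cenpa rose in PMA-treated skin (log2 fold change 1.15 ± 0.25 (SE), edgeR adjusted p = 0.0172). The call was lost without either of 2 single libraries (log2 fold change 0.92 to 1.04, edgeR adjusted p up to 0.082). Cenpf, a large protein of the outer kinetochore, stood at 16.5, 22.4, 5.85 and 20.8 CPM in untreated ND and at 14.4, 20.4, 13.3 and 20.2 CPM in untreated HFD libraries. After PMA, Cenpf stood at 24, 8.80, 27 and 34.6 CPM in ND and at 68.7, 73.5, 39.2 and 40.9 CPM in HFD libraries. PMA-treated ND replicate 2 was far below the other 3, and Cenpf did not pass in ND mice (0.52 ± 0.37, edgeR adjusted p = 0.423). Spc24, a subunit of the microtubule-binding NDC80 complex, stood at 3.45, 5.01, 5.76 and 3.70 CPM in untreated ND and at 13, 9.03, 6.74 and 8.13 CPM in untreated HFD libraries. After PMA, Spc24 stood at 18.2, 21, 16.7 and 19.5 CPM in ND and at 26.9, 37.4, 27.1 and 20.03 CPM in HFD libraries. HFD raised it in untreated skin (log2 fold change 1.03 ± 0.26 (SE), edgeR adjusted p = 0.0282), with no overlap between the diets there. The call was lost without any of 4 single libraries (log2 fold change 0.83 to 1.04, edgeR adjusted p up to 0.104) and without the hair-highest library of each group (0.75, adjusted p = 0.213). Spc25, the partner of SPC24, stood at 6.28, 8.59, 4.41 and 6.61 CPM in untreated ND and at 17.3, 14.6, 13.8 and 9.76 CPM in untreated HFD libraries. After PMA, Spc25 stood at 27.7, 11, 25 and 24 CPM in ND and at 51.3, 51.5, 35.5 and 24.5 CPM in HFD libraries. It too rose with HFD in untreated skin (log2 fold change 1.09 ± 0.30 (SE), edgeR adjusted p = 0.0473). The call was lost without any of 10 single libraries (log2 fold change 0.96 to 1.11, edgeR adjusted p up to 0.147) and without the hair-highest library of each group (0.99, adjusted p = 0.104). Nuf2, another NDC80 subunit, stood at 1.97, 3.97, 3.26 and 4.82 CPM in untreated ND and at 10.4, 7.41, 4.35 and 4.99 CPM in untreated HFD libraries. After PMA, Nuf2 stood at 14.6, 8.28, 16.7 and 19 CPM in ND and at 27.4, 22.4, 20.5 and 12.1 CPM in HFD libraries. Treated exceeded untreated libraries in both diets, and the diets overlapped in treated skin (log2 fold change 2.05 ± 0.35 (SE) in ND and 1.61 ± 0.34 in HFD mice, edgeR adjusted p = 0.00049 and adjusted p = 0.00342). Ndc80 and the kinetochore kinesin gene Cenpe rose with PMA as well, by 1.36 and 1.49 in ND and by 1.51 and 1.97 in HFD mice.

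Spindle checkpoint genes rose with PMA in 3 of 4 cases in ND and in 2 of 4 in HFD mice. Bub1b, BubR1 of the mitotic checkpoint complex, stood at 10.7, 19.1, 16.4 and 26.3 CPM in untreated ND and at 31.7, 26.8, 18.5 and 21.9 CPM in untreated HFD libraries. After PMA, Bub1b stood at 35, 61.8, 34.3 and 51 CPM in ND and at 89.98, 100.3, 63.6 and 28 CPM in HFD libraries. PMA-treated HFD replicate 4 lay among the untreated HFD libraries, and the test passed in both diets (log2 fold change 1.33 ± 0.32 (SE) in ND and 1.52 ± 0.32 in HFD mice, edgeR adjusted p = 0.00842 and adjusted p = 0.00341). Mad2l1, MAD2, which holds CDC20, stood at 15.3, 17.8, 14.6 and 6.39 CPM in untreated ND and at 16, 13, 12.8 and 14 CPM in untreated HFD libraries. After PMA, Mad2l1 stood at 33.9, 20.6, 32.7 and 35.6 CPM in ND and at 39.1, 54.8, 40.8 and 28.9 CPM in HFD libraries. Treated and untreated libraries did not overlap (log2 fold change 1.18 ± 0.26 (SE), edgeR adjusted p = 0.0046 in ND mice), and the diets overlapped in both treatments. Bub1, the kinase that recruits checkpoint proteins, had 1.36, 4.34, 0 and 3.81 CPM in untreated ND and 14.2, 2.70, 15.3 and 9.44 CPM in PMA-treated ND libraries. It was the 1 gene of the 51 with a library at 0 counts, and it rose in ND (2.12 ± 0.65, edgeR adjusted p = 0.035) but did not pass in HFD mice (1.76 ± 0.62, adjusted p = 0.0699), a difference that was itself not called. Ttk, the kinase that starts the checkpoint, passed in neither diet and was picked for its values. It stood at 16.1, 16.4, 17.6 and 14 CPM in untreated ND, 20.2, 9.88, 19.3 and 20.9 in untreated HFD, 23.9, 6.61, 24.8 and 41.3 in PMA-treated ND and 22.3, 29.8, 25.3 and 22.2 CPM in PMA-treated HFD libraries (0.58 ± 0.35 and 0.51 ± 0.35). PMA-treated ND replicate 2 was its lowest library, and in HFD mice the treated libraries all exceeded the untreated ones.

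Genes of anaphase control were divided, with 3 of 5 higher with PMA in both diets. Cdc20, the activator of the anaphase-promoting complex (chromosome 4, 118432901 to 118437352), stood at 28.2, 49.96, 38.8 and 38.8 CPM in untreated ND and at 79.4, 52.5, 52.5 and 56.2 CPM in untreated HFD libraries. After PMA, Cdc20 stood at 89.3, 83.2, 98.7 and 127 CPM in ND and at 191, 239, 141 and 112 CPM in HFD libraries. PMA raised it in both diets (log2 fold change 1.35 ± 0.22 (SE), edgeR adjusted p = 0.000276, in ND mice), and the untreated diets did not overlap. Ube2c, the ubiquitin-conjugating enzyme of that complex (chromosome 2, 164769898 to 164778822), stood at 4.44, 2.64, 3.84 and 2.02 CPM in untreated ND and at 8.14, 8.49, 11.3 and 6.40 CPM in untreated HFD libraries. After PMA, Ube2c stood at 12.4, 11.4, 9.38 and 11.9 CPM in ND and at 24.9, 50.9, 18.7 and 22.9 CPM in HFD libraries. No 2 groups that were compared overlapped, and PMA raised Ube2c in both diets (log2 fold change 1.80 ± 0.32 (SE) in ND and 1.77 ± 0.31 in HFD mice, edgeR adjusted p = 0.000728 and adjusted p = 0.000727). Ube2c had the largest diet effect of the 51 in untreated skin (log2 fold change 1.41 ± 0.32 (SE), edgeR adjusted p = 0.0167) and in treated skin (1.38 ± 0.30, adjusted p = 0.0194). The call in untreated skin was lost without ND replicate 4 or HFD replicate 3 and without the hair-highest library of each group (log2 fold change 1.28, edgeR adjusted p = 0.1). That in treated skin was lost without PMA-treated ND replicate 3 or HFD replicate 2 (1.00 without the latter, adjusted p = 0.0979). Of its exon bases 22.8% lie in Tnnc2 on the opposite strand, a fast muscle troponin gene listed at 0 to 7 counts per library. The same libraries held 1885 to 6648 CPM of 5 skeletal muscle genes, and whether Ube2c counts include Tnnc2 reads was not tested. Cdca3, a target of the complex, stood at 9.24, 19.5, 9.31 and 12.4 CPM in untreated ND and at 25.5, 15.9, 29.4 and 19 CPM in untreated HFD libraries. After PMA, Cdca3 stood at 22.4, 25.9, 22.3 and 26.2 CPM in ND and at 51.3, 82.7, 48.8 and 42.1 CPM in HFD libraries. With HFD it rose in treated skin (log2 fold change 1.22 ± 0.25 (SE), edgeR adjusted p = 0.0148). The call was lost without PMA-treated HFD replicate 2 (log2 fold change 0.99, edgeR adjusted p = 0.0677). Pttg1 and Espl1 encode securin and separase, the inhibitor and the protease that together time the parting of chromatids, and both were picked for their values. Pttg1 stood at 23.4, 21.1, 26.8 and 25.3 CPM in untreated ND and 18.9, 23.3, 17.5 and 19.5 CPM in PMA-treated ND libraries (log2 fold change -0.29 ± 0.16 (SE), edgeR adjusted p = 0.277). In HFD mice Pttg1 stood at 26.2, 27.7, 28.1 and 27.3 CPM untreated and 22.3, 27.9, 24.4 and 26 CPM treated (-0.12 ± 0.16, adjusted p = 0.721). Espl1 stood at 21.6, 21.8, 28.1 and 53.2 CPM in untreated ND and 23.5, 37.9, 23 and 31.7 CPM in PMA-treated ND libraries (log2 fold change -0.10 ± 0.27 (SE), edgeR adjusted p = 0.866). In HFD mice Espl1 stood at 43.7, 27.2, 21.8 and 28.8 CPM untreated and 27.7, 21.7, 23.3 and 26.2 CPM treated. In both diets these were the 2 lowest log2 fold changes of the 51, and treated and untreated libraries overlapped.

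Spindle motor and microtubule genes rose with PMA in 6 of 8 cases in ND and in 8 of 8 in HFD mice. Kif11, the kinesin-5 that pushes the spindle poles apart, stood at 10.1, 16.1, 8.44 and 13.2 CPM in untreated ND and at 29.6, 13.5, 15.7 and 13.8 CPM in untreated HFD libraries. After PMA, Kif11 stood at 52.8, 13.6, 35.8 and 46.7 CPM in ND and at 89.1, 86.9, 56.4 and 51.4 CPM in HFD libraries. PMA-treated ND replicate 2 was as low as untreated libraries while the other 3 were 35.8 CPM or more, and the test passed in both diets (log2 fold change 1.63 ± 0.35 (SE) in ND and 1.98 ± 0.34 in HFD mice, edgeR adjusted p = 0.00315 and adjusted p = 0.000734). Nusap1, a stabiliser of spindle microtubules, stood at 11.8, 17.8, 12.3 and 17 CPM in untreated ND and at 27.5, 22.5, 21.4 and 11.6 CPM in untreated HFD libraries. After PMA, Nusap1 stood at 44.3, 29.99, 45.6 and 52.3 CPM in ND and at 84.8, 104, 65.8 and 41.7 CPM in HFD libraries. All treated libraries exceeded the untreated ones of their diet (log2 fold change 1.54 ± 0.27 (SE) in ND and 1.84 ± 0.27 in HFD mice, edgeR adjusted p = 0.000649 and adjusted p = 0.000174). Hmmr, a spindle protein that also binds hyaluronan, stood at 4.56, 3.31, 5.57 and 9.86 CPM in untreated ND and at 8.76, 6.94, 8.41 and 4.34 CPM in untreated HFD libraries. After PMA, Hmmr stood at 13.9, 9.25, 13.2 and 19.8 CPM in ND and at 39.3, 41.1, 22.7 and 21.9 CPM in HFD libraries. In HFD mice its rise was among the largest (log2 fold change 2.13 ± 0.34 (SE), edgeR adjusted p = 0.000336). The Aurora A activator gene Tpx2, the depolymerising kinesin gene Kif2c and Ckap2 rose in both diets. The chromokinesin gene Kif4 and Dlgap5 rose in HFD mice (1.09 and 1.09, edgeR adjusted p = 0.0395 and 0.0335) and did not pass in ND mice (0.48 and 0.61, adjusted p = 0.423 and 0.261).

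Central spindle and cytokinesis genes rose with PMA in 5 of 6 cases in ND and in 6 of 6 in HFD mice. Racgap1, a subunit of centralspindlin, stood at 20.8, 26.9, 24.9 and 28.6 CPM in untreated ND and at 64.4, 46.1, 28.9 and 38.9 CPM in untreated HFD libraries. After PMA, Racgap1 stood at 66.7, 60.8, 61.1 and 94.5 CPM in ND and at 110.4, 135, 90.6 and 76.7 CPM in HFD libraries. HFD raised it in untreated skin (log2 fold change 0.81 ± 0.22 (SE), edgeR adjusted p = 0.0441), where the diets did not overlap, and PMA raised it in both diets (1.48 and 1.22). The diet call was lost without any of 9 single libraries (edgeR adjusted p up to 0.169) and without the hair-highest library of each group (log2 fold change 0.65, adjusted p = 0.192). Ect2, the activator of RhoA at the division plane, stood at 15.3, 8.69, 10.9 and 16.5 CPM in untreated ND and at 17.6, 23.5, 12.1 and 6.61 CPM in untreated HFD libraries. After PMA, Ect2 stood at 38.6, 24.6, 26.5 and 35.5 CPM in ND and at 59.5, 62.5, 48.1 and 39.2 CPM in HFD libraries. Treated libraries exceeded untreated ones in both diets, and treated HFD exceeded treated ND libraries (log2 fold change 1.29 ± 0.30 (SE) in ND and 1.80 ± 0.30 in HFD mice, edgeR adjusted p = 0.00587 and adjusted p = 0.000481 for PMA). Anln, anillin of the contractile ring, stood at 26.9, 41.1, 28.4 and 34.3 CPM in untreated ND and at 43.9, 49.5, 38.1 and 25.9 CPM in untreated HFD libraries. After PMA, Anln stood at 51.3, 26.5, 58.1 and 61.9 CPM in ND and at 84.8, 137, 75 and 79.6 CPM in HFD libraries. Anln was the exception in ND mice (log2 fold change 0.59 ± 0.25 (SE), edgeR adjusted p = 0.138), with PMA-treated replicate 2 at the level of untreated libraries. Prc1, the crosslinker of the central spindle, and the kinesin genes Kif20a and Kif23 rose in both diets. Of Kif20a 29.3% of exon bases lie in Cdc23 on the opposite strand, which was counted at 492 to 1563 reads per library, and SMART-seq2 libraries keep no strand, so reads from such shared bases cannot be told apart. Kif4 (15.1% in Pdzd11) and Prc1 (11.1% in Rccd1) share bases in the same way.

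The comparison of PMA with no treatment asked how far mitotic genes respond within 24 h. In ND mice 36 of the 51 genes had 4 treated values above all 4 untreated ones, against 10.6% of all genes, and in HFD mice 44, against 10.8%. Both diets called 41 of the 51, 6 more passed in HFD mice and 1 more, Bub1, in ND mice. The 6 were Cenpa, Cenpf, Smc4, Kif4, Dlgap5 and Anln, all with a positive log2 fold change in ND mice (0.30 to 0.70). Among treated ND libraries, replicate 2 was the lowest for Cenpf, Smc4, Kif4 and Anln, and other replicates were for Cenpa and Dlgap5. That library was also low in the sum of 10 cohesin genes, at 413 CPM beside 758 to 784 CPM in the rest of its group. Its part in the differences between diets was not tested. Averaged over both diets 48 rose, and none fell, against 14.3% and 9.58% of all genes, and the other 3 were Pttg1, Espl1 and Ttk. Within a diet some calls were lost when single libraries were left out 1 at a time. In ND mice Ncapg was lost without any of 11, Bub1 of 7, Cks2 and Ckap2 of 6 and Prc1 of 5 (edgeR adjusted p up to 0.143). In HFD mice Cks2, Dlgap5 and Kif4 were lost without any of 6 and Nek2 of 5 (adjusted p up to 0.203). Further calls were lost in fewer runs. Over all genes the calls in ND mice were 1577 higher and 702 lower (69.2% higher), a share that was 61.7% with RLE and 58.5% with upper-quartile factors, while no member was called lower under any scaling. Among RHP libraries alone, where 3 untreated HFD libraries remain, 47 passed in HFD mice. With the prefix as a term 24 passed in ND mice, but untreated HFD replicate 1 is the 1 library that sets that term within a group, so this count rests on that library and does not part prefix from PMA. Without PMA-treated HFD replicates 1 and 2 the HFD count was 23 (median log2 fold change 1.15). It was 14 (median 1.79) without the 4 libraries over 500 CPM of hair genes, which leaves 1 untreated HFD library, assumed to vary like the others.

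**Figure D4:**
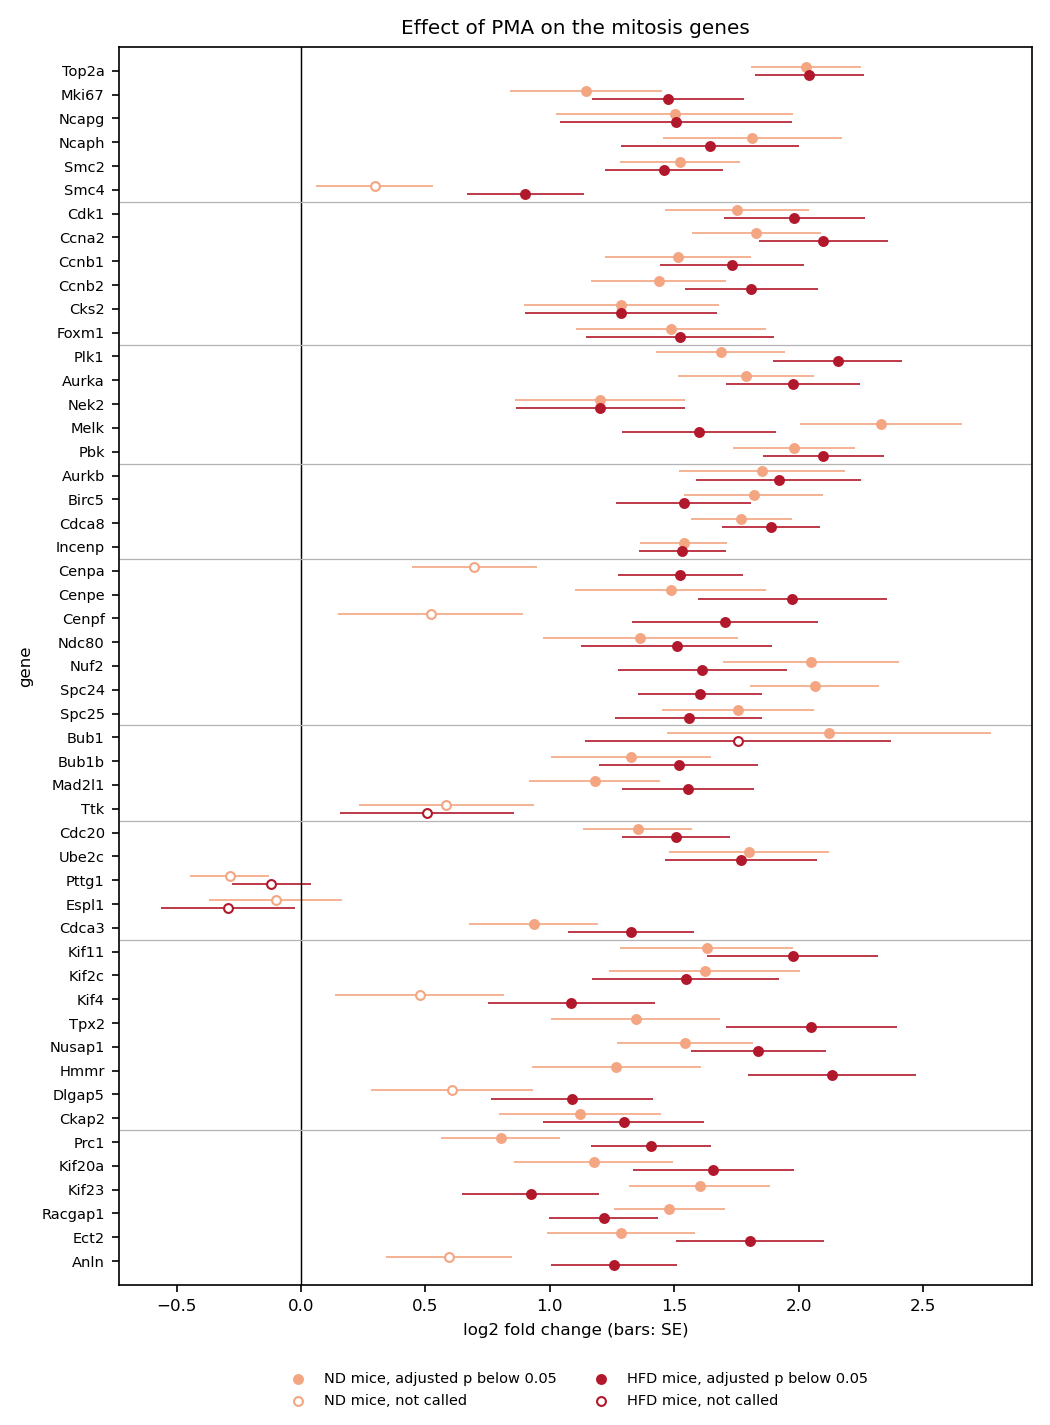
Log2 fold change with PMA (horizontal axis, points with SE bars) of each of the 51 genes (vertical axis, ordered by role) in ND mice (light) and HFD mice (dark), filled where the edgeR adjusted p is below 0.05. All but Pttg1 and Espl1 lie right of 0, most between 1 and 2.3.

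The comparison of diets asked whether HFD alters mitotic genes in either state of the skin. In untreated skin Ube2c, Spc24, Cdca8, Birc5, Racgap1 and Spc25 rose, and in PMA-treated skin Cdca3, Cenpa, Cdca8, Ube2c and Ccnb2, so that Ube2c and Cdca8 passed in both. All 4 HFD values exceeded all 4 ND values for 9 genes in untreated skin (7.18% of all genes) and for 16 in treated skin (3.93%). The log2 fold change was positive for 48 and 50 of the 51, and for 48 in both comparisons, beside 8384 and 8205 of 17604 genes. Genes measured in the same mice are not replicates of the diet, so these counts describe the list only. Averaged over both treatments 22 rose with HFD, and none fell, against 5.8% and 4.85% of all genes. Beside genes already named, these 22 included Top2a (0.70 ± 0.15, edgeR adjusted p = 0.00495), Cdc20 (0.70 ± 0.15, adjusted p = 0.00514), Smc2 (0.77 ± 0.17, adjusted p = 0.00492) and Pbk (0.75 ± 0.17, adjusted p = 0.0059).

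Which diet calls passed depended on single libraries and on the tool, while the log2 fold changes of called genes kept their sign under every alternative run. Each of the 6 in untreated skin was lost without at least 2 single libraries taken 1 at a time, and each of the 5 in treated skin without PMA-treated HFD replicate 2. In the other direction DESeq2 called 10 in untreated and 22 in treated skin. Over all genes DESeq2 also called more higher, 782 and 446, where edgeR called 505 and 166. In treated skin 10 passed without HFD replicate 4, 13 with a filter of 5 CPM in 4 libraries and 9 with no filter. Such runs differ in the libraries or genes tested, and so in the adjustment. Their counts therefore do not measure a gain of the 51 over other genes. In treated skin 0 of the 51 passed without PMA-treated HFD replicate 2, and 0 without replicates 1 and 2, with a median log2 fold change over the 51 of 0.59 and 0.34. In untreated skin 1 of the 51 passed without HFD replicate 1, HFD replicate 2 or ND replicate 4, and 2 without ND replicate 1 or 3. With the library ID prefix as a term, 4 of the 6 calls in untreated skin were lost. That term rests on untreated HFD replicate 1 alone, so the fit does not part prefix from diet. Untreated HFD replicate 1 was the library highest in both mitotic and hair RNA among the untreated ones. The hair-highest libraries were untreated ND replicate 4 (58.8 CPM), PMA-treated ND replicate 2 (187 CPM) and replicate 1 of untreated and treated HFD (2877 and 3685 CPM). Leaving them out thus also removes ND libraries with far less hair RNA. Of these, PMA-treated ND replicate 2 had the lowest mitotic sum of its group. Without the library of each group highest in hair genes 0 passed in untreated skin and 4 in treated skin (median 0.39 and 0.56), and without the 4 libraries over 500 CPM of hair genes 0 and 1 (median 0.20 and 0.70). Averaged over treatments the count of 22 became 14 without PMA-treated HFD replicate 2, 12 without the hair-highest library of each group and 3 without the 4 libraries over 500 CPM. The part of hair growth in the diet difference was not tested. The PMA effect did not differ between the diets for any of the 51 genes past the test (edgeR interaction, 0 of 51, where 0.00568% of all genes were called, and 0 with DESeq2). At an unadjusted edgeR p below 0.05, 2 were higher, Cenpa and Cenpf, and 0 lower, beside 311 higher and 504 lower of all 17604 genes. The interaction was positive for 35 of 51, with a median of 0.17 and a range from -0.73 to 1.18 on the log2 scale.

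**Figure D5:**
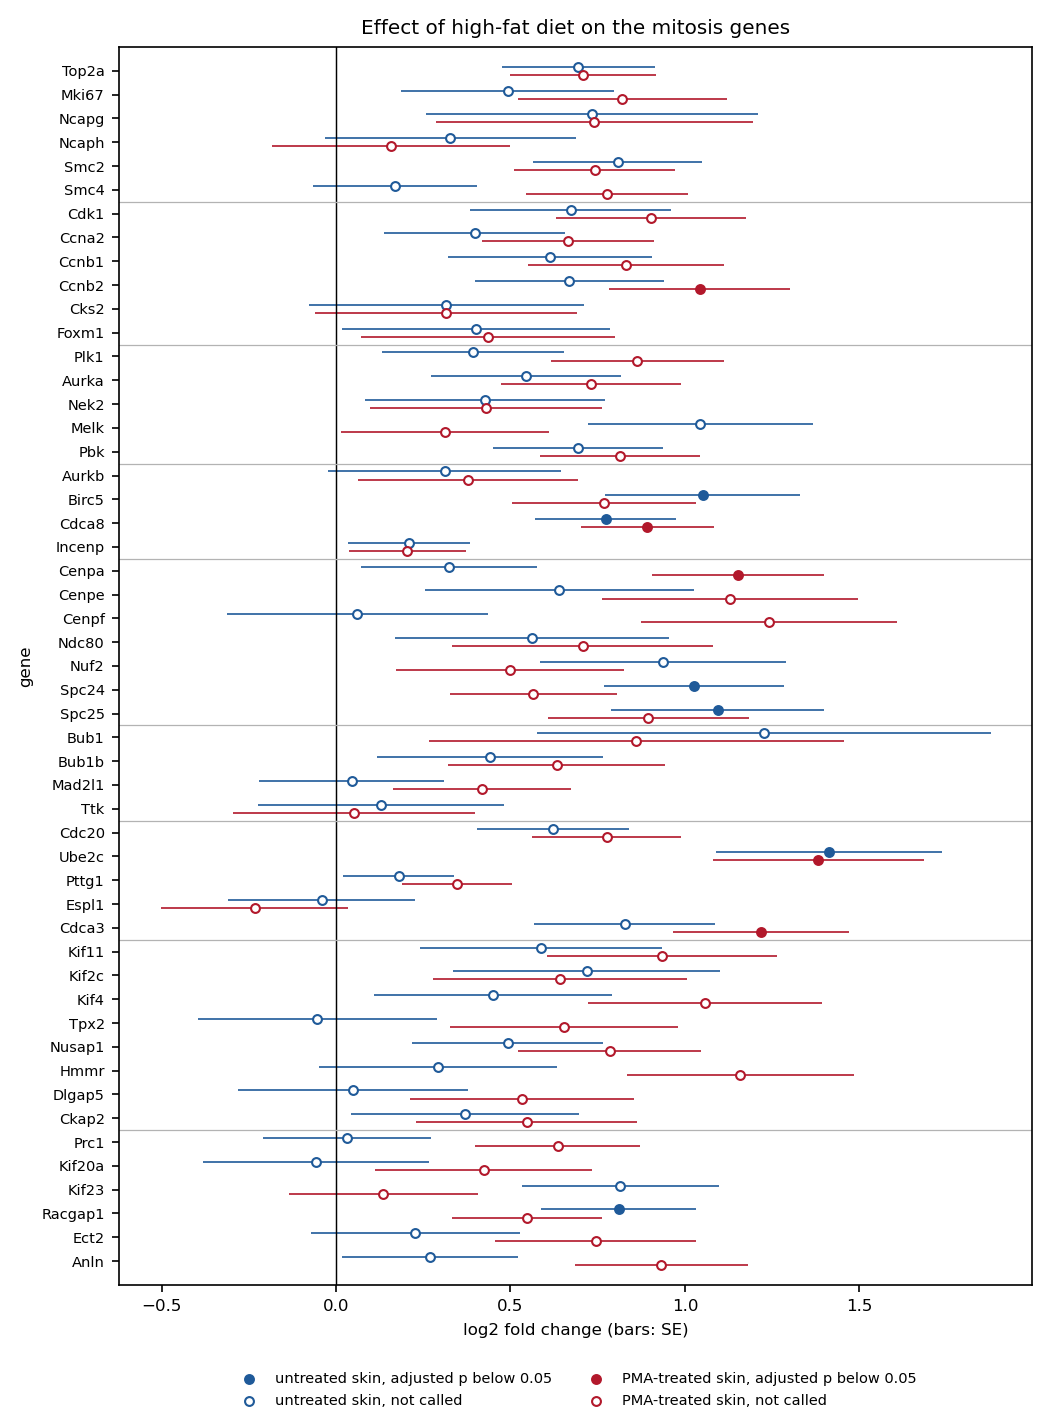
Log2 fold change with HFD (horizontal axis, points with SE bars) of each of the 51 genes (vertical axis, ordered by role) in untreated (blue) and PMA-treated skin (red), filled where the edgeR adjusted p is below 0.05. Nearly all points lie right of 0, and 6 blue and 5 red points are filled.

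Related cell cycle genes gave the context. Of 44 other mitotic genes 31 rose with PMA in ND and 36 in HFD mice and none fell (median log2 fold change 1.31 and 1.36). Among them were Kntc1, a kinetochore gene, Shcbp1 (7.51 ± 2.59 to 30.1 ± 12 CPM in ND mice) and Cdca5 (6.79 ± 0.981 to 26.6 ± 7.06 CPM in ND mice), which encodes sororin, a protector of sister cohesion. Of the same 44, 2 rose with HFD in untreated and 2 in treated skin (median 0.31 and 0.44), beside 2.87% and 0.943% of all genes, both times with Stmn1, encoding a microtubule destabiliser, at 12.3 and 23.3 CPM untreated and 25.7 and 48.3 CPM treated. All 24 DNA replication genes rose with PMA in ND and 18 in HFD mice (median 1.39 and 1.01), led by Uhrf1, which keeps DNA methylation through replication, and Rrm2 (36.2 ± 5.39 to 154 ± 14.9 CPM in ND mice), a subunit of ribonucleotide reductase. With HFD 1, Uhrf1, rose in untreated and 0 in treated skin (median 0.41 and 0.10). In treated skin 1 was higher and 1 lower at an unadjusted edgeR p below 0.05, beside 1178 and 1549 of all 17604 genes.

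Per library, the summed level of the 51 mitosis genes divided by that of the 24 replication genes was 1.03, 0.982, 0.922 and 0.983 in untreated ND and 1.16, 0.999, 0.946 and 1.12 in untreated HFD replicates 1 to 4. It was 0.992, 0.716, 0.808 and 0.988 in PMA-treated ND and 1.57, 1.80, 1.31 and 1.14 in PMA-treated HFD replicates 1 to 4. The treated diets did not overlap in this ratio, while they overlapped in the replication sum itself. With the 44 other mitotic genes in place of the 51, the ratio ran from 0.415 to 0.539 in treated ND and from 0.512 to 0.762 in treated HFD libraries and overlapped. These ratios are descriptions with no test.

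Beside the lists that follow stand the 8.96% (ND) and 7.34% (HFD) of all genes called higher with PMA, shares that a list of 10 to 17 genes meets with about 1 call. Of 10 MuvB and NF-Y regulators 2 rose with PMA in ND and 1 in HFD mice, among them Mybl2 (5.53 ± 1.68 to 24.4 ± 5.65 CPM in ND mice), which encodes B-MYB. Of 14 genes of G1 entry 7 rose and 1 fell in ND mice (5 and 2 in HFD mice). Cyclin E1 rose, Ccne1 (3.06 ± 2.05 to 25.2 ± 2.81 CPM in ND mice), and cyclin D2 fell, Ccnd2 (658 ± 122 to 319 ± 44.7 CPM in ND mice). Of 16 tested genes of CDK inhibitors and quiescence 3 rose and 1 fell in each diet, with the pocket protein gene Rbl1, Cdkn2d and E2f4 higher in both, Btg2 lower in ND and Btg1 lower in HFD mice. Of 17 genes of the anaphase-promoting complex 1 rose in ND mice, its inhibitor gene Fbxo5 (5.69 ± 1.66 to 18.8 ± 2.21 CPM in ND mice), and 2 in HFD mice. Of 10 cohesin genes 1 rose in ND mice, Esco2 (3.31 ± 0.753 to 19.1 ± 6.08 CPM in ND mice), encoding the acetyltransferase that locks cohesin in S phase, and 2 in HFD mice. Of these 5 lists 1 gene rose with HFD in untreated skin, the G1 kinase gene Cdk4, and none was called in treated skin. There edgeR gave 4 an unadjusted p below 0.05 in either direction, beside 1178 higher and 1549 lower of all 17604 genes.

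Markers of cell types that could divide or change in number were read in the same libraries. Beside their counts of calls stand the shares of all genes tested. With PMA 8.96% were called higher and 3.99% lower in ND mice, and 7.34% and 4.6% in HFD mice. With HFD 2.87% were called higher and 1.06% lower in untreated skin, and 0.943% and 1.26% in treated skin. Summed over 7 basal keratinocyte genes the level was 15702 to 19596 CPM in untreated ND, 17995 to 18337 in untreated HFD, 18907 to 21921 in PMA-treated ND and 20314 to 24079 CPM in PMA-treated HFD libraries. Its genes went both ways with PMA: 2 rose and 2 fell in ND mice (log2 fold changes -1.70 to 1.01), and 1 rose and 2 fell in HFD mice. The 4 wound-associated keratin genes (Krt6a, Krt6b, Krt16 and Krt17) all rose with PMA in both diets. They summed to 731 to 840.1 CPM in untreated ND and 1535 to 2303 CPM in untreated HFD libraries. After PMA they summed to 6025 to 9191 CPM in ND and 8483 to 18195 CPM in HFD libraries, highest in HFD replicates 2 and 1 (18195 and 13763 CPM). Neutrophil genes summed to 8.88 to 22.4 and 21.4 to 59.5 CPM untreated and to 81.8 to 255 and 289 to 1209.7 CPM treated, again highest in HFD replicates 1 and 2. The 6 macrophage genes summed to 362 to 492 CPM in untreated ND and 229 to 346 CPM in untreated HFD libraries. After PMA they summed to 517 to 801 CPM in ND and 273 to 521 CPM in HFD libraries. With PMA 4 of the 6 rose in ND and 3 in HFD mice, and with HFD 1 fell in untreated and 2 in treated skin. The 8 T cell genes summed to 24.2 to 47.9 CPM over all 16. With HFD in untreated skin 4 of 6 suprabasal keratinocyte genes rose, with sums of 8037 to 8535 CPM in ND and 11926 to 15701 CPM in HFD libraries. In the same comparison 4 of 6 fibroblast genes fell (8621 to 10974 and 5569.9 to 6579 CPM), and in treated skin 3 fell (6302 to 8868 and 3788 to 5994 CPM). None of 5 hair matrix genes was called with HFD in untreated or in treated skin, and 1 was called higher averaged over treatments, beside 5.8% of all genes. Their sum was 114 to 144 CPM in untreated ND, 151 to 204 in untreated HFD, 91.3 to 131 in treated ND and 100.3 to 181 CPM in treated HFD libraries. Of 6 sebocyte genes 2 fell with PMA in each diet, with sums of 6189 to 8538 CPM in untreated and 3043 to 4529.7 CPM in treated ND libraries, and of 4964 to 6629.9 and 2332 to 3379 CPM in HFD libraries. Of 5 cartilage genes 1 fell with PMA in ND and 4 in HFD mice, and 4 fell with HFD in treated skin. Of 5 adipocyte genes 3 fell with PMA in each diet. The part of changed cell numbers in the PMA and diet differences of the mitosis genes was not tested.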

How the data were processed

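RNA of 16 mouse ear skin libraries was sequenced, 4 mice per group, and the authors deposited 1 table of read counts per gene. Per the submitters' processing notes, STAR 2.3, featureCounts 1.5 and GRCm38 (mm10) were used, with no role given for each and no strand setting, on SMART-seq2 libraries made from total RNA. Columns were matched to mice by the library IDs in the labels, and replicate numbers are those of the labels. The counts were tested with edgeR 4.0.16 (filterByExpr, TMM, robust quasi-likelihood fit with limma 3.58.1, 4 group means, R 4.3.3), adjusted by Benjamini-Hochberg over the 17604 genes kept, with a threshold of 0.05. CPM use the same factors, and TPM divide by the gene length in the deposited table. In each group 4 replicates limit the precision, and the total count per library, 7739487 to 15571389, limits genes with few counts: 49 of the 51 genes averaged 10 CPM or more. No pair of libraries in a group was alike within sampling noise. The members and lists were chosen with earlier results of these data known. Values in every library are given for the 2 genes of each role with the highest mean CPM and the 25 with the smallest adjusted p, 31 in all. Of related lists, up to 4 called genes with the largest log2 fold change and at least 5 CPM are named. Bub1, Smc4, Ttk, Pttg1 and Espl1 lie outside this rule and were chosen after their values were seen. Alternatives were RLE and upper-quartile factors, other filters, DESeq2 1.42.0, fits on subsets, a replicate block, the library ID prefix as a term, and leaving out libraries. The fit was tested on simulated data. Promoter sequences are RefSeq's, build GRCm38.p6.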

Additional observations from a re-analysis of the deposited data

Results flagged for a closer look

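Over the 51 genes and their sum in 4 groups, 208 sets of 4 values were looked at for a library far from the other 3. Chance gives about 1 in 20 of them, and 8 were found, fewer than that share. In 5 of them untreated HFD replicate 1, which also had the highest hair sum of the untreated libraries, was the high one. These 5 come from 1 mouse and are not independent. In that library the spindle pole kinase gene Aurka stood at 15.9 CPM beside 11.0 to 11.1 in the other 3 libraries, and the kinesin gene Kif11 at 29.6 CPM beside 13.5 to 15.7. Cdc20 stood at 79.4 CPM beside 52.5 to 56.2, Kif2c at 19.5 CPM beside 7.81 to 8.87, and Cks2 at 4.81 CPM beside 2.03 to 2.49. Ttk was low in untreated HFD replicate 2, at 9.88 CPM beside 19.3 to 20.9. Ccnb2 was low in PMA-treated ND replicate 2, at 21.7 CPM beside 35.3 to 36.3. Anln was high in PMA-treated HFD replicate 2, at 137 CPM beside 75.0 to 84.8.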

How the results depend on the processing

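No gene of the 51 was called lower in any comparison under any alternative run, and no named result changed direction. RLE and upper-quartile factors left each count of calls within 1.5 times its main value. DESeq2 called 10 with HFD in untreated and 22 in treated skin, while over all genes it called 782 and 446 higher, against 505 and 166 with edgeR. A filter of 5 CPM in 4 libraries gave 13 in treated skin and no filter gave 9. Fitting only the groups compared gave 3 in untreated skin. With the library ID prefix as a term, which untreated HFD replicate 1 alone sets, 24 passed for PMA in ND mice and 3 for HFD in untreated skin. Without PMA-treated HFD replicates 1 and 2, an alternative chosen after seeing the data, 23 passed for PMA in HFD mice, 0 for HFD in treated skin and 9 for HFD averaged over treatments. Without the 4 libraries over 500 CPM of hair genes, also chosen after seeing the data, these were 14, 1 and 3, and 0 in untreated skin. Without the hair-highest library of each group, 0 passed for HFD in untreated skin and 12 averaged over treatments. Beyond the fewer libraries or genes in some fits, the cause of these shifts was not tested. Except for DESeq2, the counts of this section stand without the share of all genes called in the same run. Leaving out 1 library at a time gave 32 to 43 for PMA in ND mice, 38 to 48 in HFD mice, 47 to 49 averaged, 1 to 8 for HFD in untreated skin, 0 to 10 in treated skin, 14 to 29 averaged, and 0 for the interaction. With the replicate number as a block, 39 and 44 passed for PMA in ND and HFD mice and 4 for HFD in each treatment. The labels state no pairing by number. Of 24 same-number pairs 4 had a correlation over 0.1 (from -0.11 to 0.29, median 0.0096, beside -0.0070 for other-number pairs). Still, 9 of 16 libraries correlated best with one of their own number, and whether libraries of a number share a source was not tested. Depth limits genes with few counts, such as Bub1, which had 0 counts in untreated ND replicate 3.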
